A study of Rattus norvegicus with 18 samples.

Results

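Livers of 3 male Wistar rats fed sunflower oil for life were compared with livers of 3 male Wistar rats fed virgin olive oil for life, all killed at 24 months of age. The 6 arrays were chosen by their titles, out of 18 arrays in the series, and every gene measured entered the comparison. The other 12 arrays were from rats fed fish oil at 24 months and from rats fed 1 of the 3 oils at 6 months, with 3 rats in each group. All of the rats ate, from weaning, a semi-synthetic diet with the same energy content and a fat content of 4% by weight, so that the kind of oil differed between groups and the amount of fat did not. The labels name no group on ordinary chow, so olive oil serves here as the reference by choice. Food was rationed after the first months of life, and rats lived in shared cages. The labels do not say which rats shared a cage, so cage and diet cannot be told apart.

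Virgin olive oil is rich in oleic acid, a monounsaturated fatty acid, whereas sunflower oil is rich in linoleic acid, the n-6 polyunsaturated fatty acid from which arachidonic acid is made. Dietary fatty acids reach the liver in chylomicron remnants or as free fatty acids. There they are oxidised in mitochondria and peroxisomes, esterified and exported in lipoproteins, or bound by nuclear receptors such as PPAR-alpha. Polyunsaturated fatty acids are known to restrain SREBP-1c, the factor that switches on fatty acid synthesis, and are more easily peroxidised than oleic acid. The series asked how dietary fat and age alter the liver transcriptome.

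Expression was measured on Affymetrix arrays, 1 array per liver, as a scaled intensity called the signal here. Differences are means of log2(signal + 16) with sunflower oil minus olive oil, so that a positive difference means a higher value with sunflower oil. A difference of 1 unit is a doubling of signal + 16. The standard errors (SE) and p-values of the differences are from limma, with the spread pooled over all 6 groups of the series. The 6 arrays had similar distributions of signal. Their median signals ran from 18.5 to 20.3 and between 44.5% and 47.2% of their values lay under 16, where log2 differences are compressed. Arrays of different oils resembled each other as closely as arrays of 1 oil: correlations of log2 values over genes were 0.9709 to 0.9816 within olive oil, 0.9761 to 0.9768 within sunflower oil and 0.966 to 0.9842 between them. The first olive oil array stood out, as the low ends 0.9709 and 0.966 both involved it. Its limma array weight, which is lower for arrays further from their group, was 0.549, beside 0.902 to 1.64 for the others compared. Hepatocyte markers, of which 10 of 11 were measured, had a mean log2 level of 12.46 to 12.68 in olive oil livers and 12.45 to 12.59 in sunflower oil livers, which fits the labelled tissue.

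The transcriptomes of the 2 groups were not told apart gene by gene. Of 14217 genes, 0 were higher and 0 were lower at a limma p adjusted by Benjamini-Hochberg under 0.05 (0% in each direction), and the lowest adjusted p was 0.9999. At an unadjusted p under 0.05 there were 568 genes (4.00%), 290 of them higher (2.04%) and 278 lower (1.96%) with sunflower oil. Groups that did not overlap, meaning that all 3 livers of 1 oil lay above all 3 of the other, were found for 1236 genes (8.69%), 655 higher (4.61%) and 581 lower (4.09%). The sizes were small as well: the median absolute difference was 0.14 and only 63 genes differed by more than 1 log2 unit, 22 higher and 41 lower.

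On the scale of signal + 16, the data bounded most genes rather than leaving them unknown. Where signals lie under 16 that scale compresses differences, so a bound there does not limit the fold of the signal itself. The median SE was 0.211, which gives a 95% interval of 0.45 log2 units to either side. For 12945 genes (91.1%) the whole interval lay within a 2-fold difference of signal + 16 either way. Among the 5422 genes with a mean signal of at least 100 in 1 of the 2 groups, 4795 (88.4%) were bounded in this way. Of these genes, 229 were higher (4.22%) and 210 lower (3.87%) without overlap, and 86 were higher (1.59%) and 93 lower (1.72%) at an unadjusted p under 0.05. A missed threshold does not show equal expression.

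**Figure D1:**
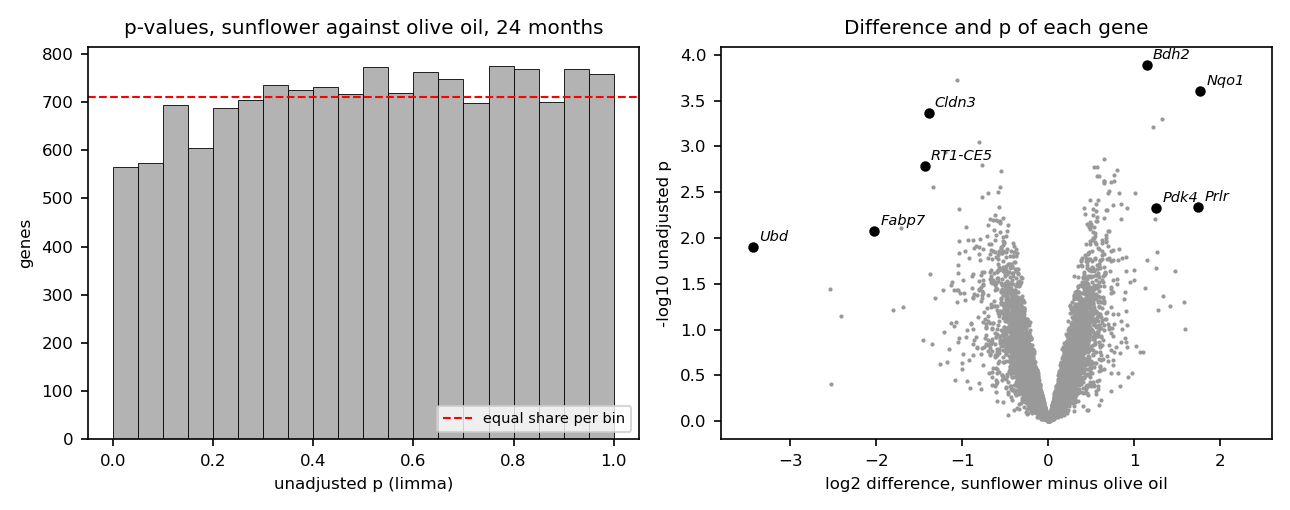
Left, the number of genes (vertical axis) in each of 20 bins of the unadjusted limma p (horizontal axis) for sunflower against olive oil at 24 months, with a dashed line at an equal share per bin. Right, the log2 difference of each gene against -log10 of its unadjusted p, with 8 genes named. The lowest bin, with 568 genes, lies under the dashed line, and the extreme differences are -3.43 for Ubd and 1.77 for Nqo1.

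As 0 genes passed, the genes below are given as values and not as calls. They are the 10 in each direction with the smallest unadjusted p among genes whose livers did not overlap between the oils and whose mean signal reached 100 in 1 group. Non-overlap was part of that choice and is therefore no result for them. Every one of the 20 had an adjusted p of 1 after rounding.

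Nqo1 and Bdh2 led the 10 genes with higher values on sunflower oil. Nqo1 encodes a quinone reductase that is a classical target of NRF2, the regulator of the antioxidant response. Its signals were 83.0, 75.3 and 80.6 in the olive oil livers and 323.4, 334.1 and 272.9 in the sunflower oil livers. The olive oil livers were close together at the low end, and the difference of 1.77 ± 0.379 (SE; 95% interval 0.96 to 2.57), or 3.4-fold, was the highest of all 14217 genes. With the spread taken from these 6 arrays alone, Nqo1 was the 1 gene past the threshold, at a limma adjusted p of 0.0328.

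Because Nqo1 had the highest difference, the 250 bases before its start site are printed from RefSeq (rat assembly GRCr8, minus strand, chr19:52220268-52220517), with the letters TATAAA, those of the TATA box motif, in capitals.
Nqo1: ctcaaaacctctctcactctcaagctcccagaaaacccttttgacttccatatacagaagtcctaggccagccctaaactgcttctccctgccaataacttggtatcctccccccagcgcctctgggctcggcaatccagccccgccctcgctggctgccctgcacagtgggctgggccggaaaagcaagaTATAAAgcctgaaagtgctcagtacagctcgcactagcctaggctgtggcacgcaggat
Those letters lie 59 to 54 bases before the start, and 12.9% of 33469 rat promoter windows of this length hold them on either strand. The core letters of the antioxidant response element, TGACNNNGC on either strand, are in 10.1% of windows and are not in this one, which says only that they are absent from these 250 bases. Of the 20 genes, 18 had a promoter in the table. The antioxidant core letters were present in 1 of them, Sik2, and the letters TATAAA in 2, Nqo1 and Cdadc1. In Cdadc1 they lay 137 to 132 bases before the start. Matching letters alone do not show a working element.

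Bdh2, a cytosolic dehydrogenase linked to ketone body use and siderophore synthesis, had the smallest p of the genes named. Its signals were 64.2, 46.8 and 64.5 with olive oil and 144.1, 171.4 and 129.2 with sunflower oil, a difference of 1.14 ± 0.229 (95% interval 0.66 to 1.63). The lowest sunflower oil liver was well above the highest olive oil liver.

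Pdk4 encodes the kinase that switches off pyruvate dehydrogenase, is induced by fatty acids and fasting, and so favours the burning of fat over glucose. It read 279.8, 380.9 and 567.3 with olive oil and 628.4, 1179.0 and 1188.3 with sunflower oil, a difference of 1.25 ± 0.384 (95% interval 0.44 to 2.07). The gap between the groups was narrow, from 567.3 to 628.4, and its other probe set differed by 0.87. Nceh1, a hydrolase of stored cholesterol esters, read 74.8, 137.6 and 130.0 against 194.0, 202.4 and 281.7 (0.92 ± 0.28). The first olive oil liver was the lowest for Pdk4 and for Nceh1. It was also the lowest for Fmo5, a flavin monooxygenase of drug and fuel metabolism, at 577.4 beside 1045.0 and 1721.2, while the sunflower oil livers read 1946.1, 2314.2 and 1938.1 (1.01 ± 0.293).

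Irs2, an insulin receptor substrate of liver, read 71.1, 47.1 and 59.4 with olive oil and 74.7, 134.4 and 106.6 with sunflower oil, a difference of 0.67 ± 0.227. Its groups were barely separated, at 71.1 and 74.7. Sik2, a salt-inducible kinase, read 56.0, 92.5 and 99 against 168.4, 157.5 and 122.0 (0.77 ± 0.209), but its second probe set differed by 0.31. The other 3 genes were Adam15, a membrane metalloproteinase (0.75 ± 0.228), Cyth1, an exchange factor for ARF GTPases (0.70 ± 0.235, with -0.10 at its second probe set), and Cdadc1, a deaminase-like protein (0.43 ± 0.134).

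Cldn3 and Clic2 led the 10 genes with lower values on sunflower oil. Cldn3, a claudin of the tight junctions that seal bile canaliculi and ducts, read 891.7, 726.0 and 442.9 with olive oil and 378.7, 227.7 and 162.0 with sunflower oil. The groups spread widely but did not overlap, and the difference was -1.39 ± 0.317 (95% interval -2.06 to -0.72). Clic2, an intracellular chloride channel protein, read 580.1, 585.9 and 216.3 against 205.1, 157.8 and 163.7 (-1.20 ± 0.304). The third olive oil liver lay beside the sunflower oil livers, and without it the difference was -1.65 at a limma adjusted p of 0.0271. Leaving out the liver nearest the other group widens a difference by itself, so that p is no support for Clic2.

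RT1-CE5, a class I gene of the rat major histocompatibility complex, read 267.8, 260.2 and 198.9 with olive oil and 35.4, 101.6 and 124.4 with sunflower oil, a difference of -1.44 ± 0.381. Its 4 other probe sets differed by -0.70, -1.07, -0.53 and 0.13. Class I genes are near-identical copies, so it is uncertain which of them these probes read. Fabp7, a fatty acid binding protein, had the largest difference of the 20 and also the largest SE: 1945.4, 3215.0 and 1119.9 against 869.8, 457.8 and 240.7, or -2.02 ± 0.674 (95% interval -3.45 to -0.59).

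Pdia5, a protein disulphide isomerase, and Tmed9, a cargo receptor of early secretory vesicles, differed by -0.70 ± 0.228 and -0.49 ± 0.162. Sco1, a copper chaperone needed to assemble cytochrome c oxidase, read 166.4, 149.4 and 127.2 against 96.5, 99.5 and 88.7 (-0.56 ± 0.158), with tight groups on both sides. The remaining 3 were Rarres1, a retinoid-responsive membrane protein (-0.96 ± 0.313), Cdk2ap2, an inhibitor partner of CDK2 (-0.58 ± 0.187), and Tspan7, a tetraspanin (-0.56 ± 0.179).

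**Figure D2:**
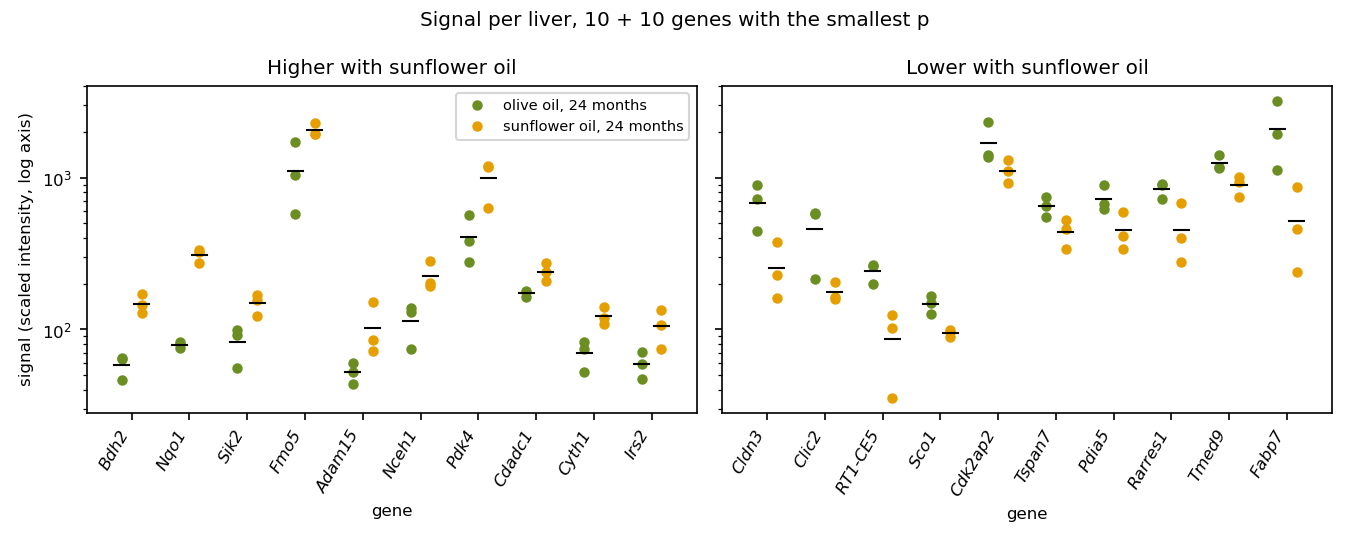
Signal per liver (vertical axis, scaled intensity on a log axis) of the 10 genes with higher values (left) and the 10 with lower values (right) on sunflower oil at 24 months, with each point 1 liver and each black line the mean of 3. The Nqo1 points of the olive oil livers lie between 75.3 and 83.0, while those of Fabp7 spread from 1119.9 to 3215.0.

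The other groups of the series place these levels. For Nqo1 the low group was old rats on olive oil: fish oil livers at 24 months read 324.6, 117.3 and 390.9, and olive oil livers at 6 months read 346.9, 347.9 and 182.6. At 6 months the sunflower oil livers read 299.8, 410.2 and 514.0, and the difference between these oils was 0.48 ± 0.379. Its change between ages, 1.28 ± 0.537, had an adjusted limma p of 1.

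Across genes, the oil difference at 24 months had little in common with the one at 6 months, which came from other rats. The correlation of the 2 differences over all genes was 0.0248, and over the 5422 genes of higher signal 0.0455, given as descriptions since genes are not independent replicates. Of the 568 genes with an unadjusted p under 0.05 at 24 months, 297 (52.3%) had the same sign at 6 months, beside 51.0% of all genes. Of the 1236 genes that did not overlap at 24 months, 64 (5.18%) did not overlap in the same direction at 6 months and 63 (5.10%) in the opposite direction. The younger comparison itself had 0 genes past the limma adjusted threshold (0%) and 550 (3.87%) at an unadjusted p under 0.05, and 1247 (8.77%) did not overlap.

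Whether the oil difference changed with age was tested directly, and 0 genes passed (0%; limma, adjusted over all genes), with 544 (3.83%) at an unadjusted p under 0.05. The smallest p-values for a change upward with age were for Aspg, an asparaginase (from -0.44 at 6 months to 0.63 at 24 months), Ak3, a mitochondrial adenylate kinase (-0.37 to 0.26), Ablim1, an actin-binding protein (-0.41 to 0.59), Pdk4 (-0.53 to 1.25) and Tmem38b, a cation channel of the endoplasmic reticulum (-0.30 to 0.46). In the other direction they were for Cldn3 (0.11 to -1.39), Cav2, a caveolin (1.73 to -0.88), RT1-CE5 (0.29 to -1.44), Ifi27l2b, an interferon-inducible gene (0.54 to -0.87), and Tmed9 (0.23 to -0.49). Pdk4 was higher again in old fish oil livers, at 1102.9, 1468.6 and 1336.0, than in old olive oil livers.

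**Figure D3:**
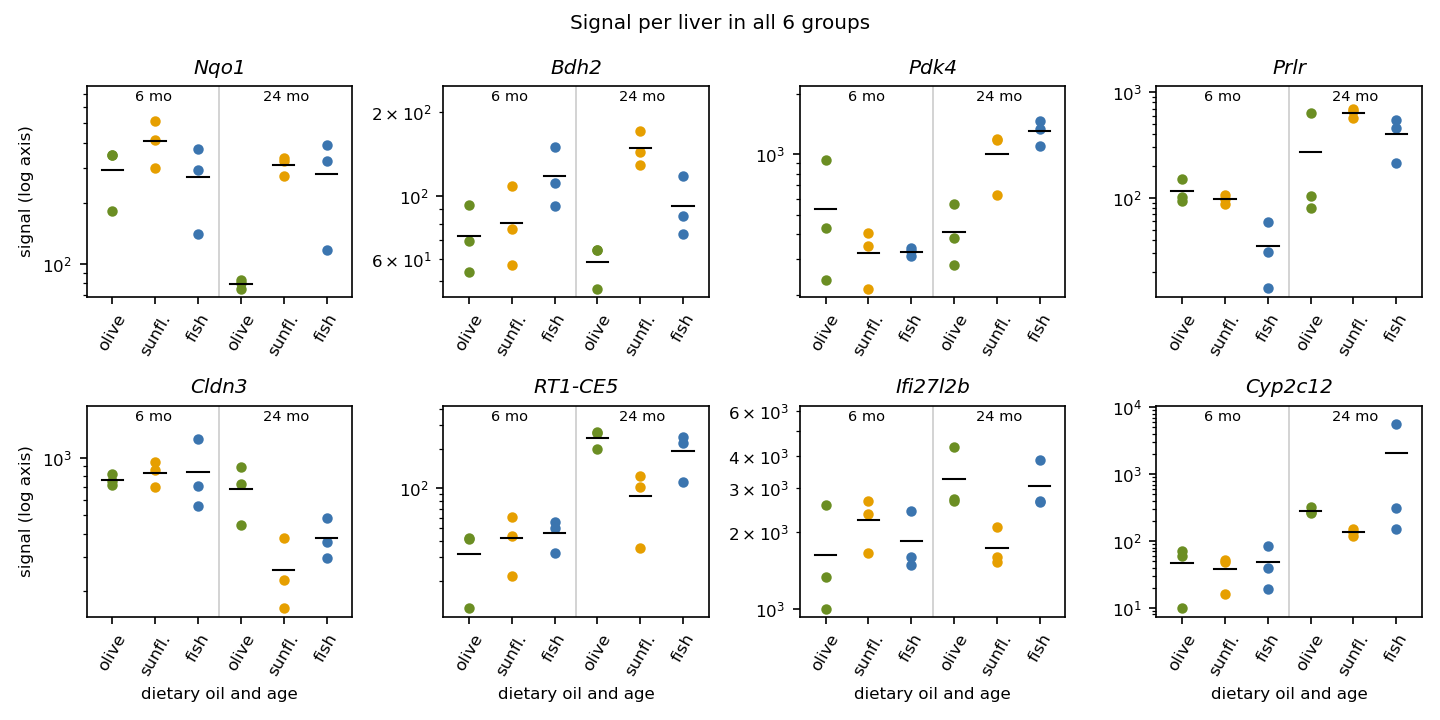
Signal per liver (vertical axes, log scale, 1 panel per gene) in the 3 oils at 6 months and at 24 months, each point 1 liver and each line the mean of 3. Old olive oil livers hold the lowest Nqo1 levels (75.3 to 83.0), and Cyp2c12 of 1 old fish oil liver reaches 5685.3.

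Lipid metabolism is the process closest to the diet, and none of its lists held a gene past the adjusted threshold. In the list of PPAR-alpha targets and mitochondrial fatty acid oxidation, 31 genes were measured and 26 had positive differences, with a median of 0.08 beside 0 for all genes. Of these 31, 3 had an unadjusted p under 0.05 and were higher, beside 2.04% of all genes, and 0 were lower. They were Pdk4, Acsl4, an acyl-CoA synthetase that prefers arachidonic acid (1092.2, 1961.2 and 2303.0 against 2540.0, 2516.3 and 2632.7; 0.58 ± 0.24), and Cpt2, the inner-membrane carnitine palmitoyltransferase (978.7, 1019.5 and 1052.4 against 1231.6, 1391.7 and 1637.9; 0.47 ± 0.215). The receptor itself, Ppara, pointed the other way, at 42.2, 49.1 and 51.3 against 40.1, 17.1 and 15.8 (-0.70 ± 0.442), and Cpt1a, the entry step of mitochondrial oxidation, differed by 0.12 ± 0.303. In the peroxisomal list the median of 29 genes was 0.13 and 0 had an unadjusted p under 0.05.

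Fatty acid synthesis was poorly resolved. Of 24 genes measured, 0 had an unadjusted p under 0.05, the median was 0.04 and 6 had an interval within 2-fold. With the spread of the 6 compared arrays alone, 14 of the 24 were bounded in this way and 0 had an unadjusted p under 0.05. Scd, the desaturase that makes oleic acid, read 427.7, 4551.2 and 4875.6 with olive oil and 222.6, 2564.5 and 6131.1 with sunflower oil. Livers of both diets spanned more than a 10-fold range. The difference of -0.46 had an SE of 2.51 and an interval from -5.78 to 4.85 with the pooled spread, and an SE of 1.29 and an interval from -3.43 to 2.51 with the 6 arrays alone. The number 2 livers at 6 months, which enter the pooled spread, read 8930.1, 8054.7 and 6102.0 for Scd, and the other livers at that age 1.4 to 25.8. Fasn, fatty acid synthase, differed by 0.59 ± 1.33 (SE 0.44 with the 6 arrays, interval -0.42 to 1.61). Acaca, acetyl-CoA carboxylase, differed by 0.73 ± 0.976 (SE 0.388 with the 6 arrays, interval -0.17 to 1.63), and Elovl6, a fatty acid elongase, by 0.83 ± 0.998 (SE 0.47, interval -0.25 to 1.92). Srebf1, which encodes SREBP-1, differed by -0.53 ± 0.514.

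The list for desaturation and elongation of polyunsaturated fatty acids had 14 genes measured, 0 of them with an unadjusted p under 0.05. It is wider than the enzymes that lengthen and desaturate linoleic acid. Among its members are the thioesterases Acot1 (0.45), Acot2 (0.18) and Acot4 (0.34), so its median does not stand for those enzymes. Fads1, the delta-5 desaturase, read 951.4, 2250.4 and 1031.8 with olive oil and 1052.5, 995.0 and 406.8 with sunflower oil (-0.78 ± 0.559), and the groups overlapped. Fads2, the delta-6 desaturase, differed by 0.24 ± 0.515, Elovl5 by -0.51 ± 0.266 and Elovl2 by -0.06 ± 0.32. The list's median of 0.21 was 0.01 without the first olive oil liver and -0.01 without the third sunflower oil liver.

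Release and oxygenation of n-6 fatty acids had 34 genes measured, 1 of them higher at an unadjusted p under 0.05 (2.04% of all genes) and a median of -0.02. That gene was Cyp4a8, a fatty acid hydroxylase, at 248.0, 104.9 and 368.5 against 440.1, 979.2 and 560.6 (1.47 ± 0.586), and its second probe set differed by 1.33. In cholesterol synthesis 1 of 19 genes was higher by the same measure, Hsd17b7 (0.75 ± 0.334, with 0.25 at its second probe set). The median of that list, 0.18, was -0.09 without the first olive oil liver. Fatty acid uptake and lipoproteins had 2 of 44, Angptl8, an inhibitor of lipoprotein lipase (0.80 ± 0.339), and Plin1, a lipid droplet protein with signals under 16 in all 6 livers. Bile acid genes had 0 of 24, and Cyp7a1, the first enzyme of bile acid synthesis, differed by -0.61 ± 0.688.

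Values of 3 antioxidant enzymes were close between the oils. Gpx1, glutathione peroxidase, differed by 0.01 (95% interval -0.25 to 0.27), Sod2, mitochondrial superoxide dismutase, by 0.06 (-0.36 to 0.47), and Cat, catalase, by -0.10 (-0.43 to 0.24). The Cat groups did not overlap, at 6364.2, 7233.6 and 6300.0 against 6181.1, 6208.4 and 6183.8, yet the gap was a small part of the level. Of 43 antioxidant and NRF2 target genes, 1 was higher at an unadjusted p under 0.05, Nqo1, and 1 was lower, Gstp1, a glutathione transferase (389.6, 384.8 and 327.4 against 299.3, 207.5 and 188.5; -0.65 ± 0.276). Of all genes, 2.04% were higher and 1.96% lower by this measure. The antioxidant list's median was -0.06, and 34 of its 43 intervals (79.1%) lay within 2-fold, beside 91.1% of all genes. Nfe2l2, which encodes NRF2, differed by 0.07 ± 0.193 and Hmox1, heme oxygenase, by -0.35 ± 0.351.

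In oxidative phosphorylation, 67 of 68 genes had intervals within 2-fold and 0 had an unadjusted p under 0.05. Its median of -0.06 was 0.00 after quantile normalisation and 0.07 without the first olive oil liver. Against 2.04% of all genes higher at an unadjusted p under 0.05, telomere maintenance had 1 of 23, Terf2, a telomere-binding protein (44.9, 42.6 and 33.8 against 54.0, 56.9 and 66.9; 0.42 ± 0.167). The other Terf2 probe sets differed by 0.04 and 0.31. Tert, the telomerase catalytic subunit, had signals under 16 in all 6 livers. Insulin and IGF signalling had 3 of 30 higher, Irs2, Mtor (0.40 ± 0.165) and Igf2r (0.53 ± 0.227), and a median of -0.01. Glucose metabolism had 2 of 27, Gys2, liver glycogen synthase (0.56 ± 0.242), and Pfkm (0.37 ± 0.176). The other Pfkm probe sets differed by 0.33 and -0.2. Pck1, the rate-setting enzyme of gluconeogenesis, differed by -0.05 (95% interval -0.32 to 0.23).

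Antigen presentation had the lowest median of the 30 pathway lists, at -0.38. Of 24 genes measured, 22 had negative differences, 5 were lower at an unadjusted p under 0.05 beside 1.96% of all genes, and 8 did not overlap between the groups in the same direction, beside 4.09% of all genes. None of the 24 passed the limma adjusted threshold. RT1-Da, the alpha chain of a class II molecule, read 534.5, 466.2 and 338.8 with olive oil and 303.9, 93 and 244.6 with sunflower oil (-1.12 ± 0.483). Cd74, the invariant chain that escorts class II, read 782.3, 753.6 and 474.3 against 541.8, 147.6 and 346.0 (-1.06 ± 0.467). The second sunflower oil liver was the lowest for both, and the third olive oil liver was the lowest of its group. Psmb9 and Psmb8, subunits of the immunoproteasome that cuts peptides for class I, differed by -1.03 ± 0.461 and -0.68 ± 0.369. B2m, the light chain of class I, differed by -0.10 on the plot of members. With each liver left out in turn the median of the list ran from -0.55 to -0.25, and at 6 months it was -0.02.

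Interferon response genes had a median of -0.20, with 27 of 34 negative and 5 lower at an unadjusted p under 0.05, beside 1.96% of all genes. At 6 months their median was 0.19. Ifi27l2b read 4340.7, 2669.7 and 2716.5 against 2102.9, 1530.1 and 1593.3 (-0.87 ± 0.311) and was 1 of 2 members, out of 34, whose groups did not overlap, near the 4.09% of all genes. Irf7, the transcription factor that amplifies type I interferon, read 280.1, 305.5 and 200 against 222.9, 76.9 and 90.0 (-1.04 ± 0.382). The first sunflower oil liver lay within the olive oil range for Irf7. It did so too for Mx2, an antiviral GTPase, which read 133.7, 166.8 and 87.7 against 126.3, 44.2 and 21.1 (-1.05 ± 0.423), with -2.23 at its second probe set. Usp18, a brake on interferon signalling, differed by -1.12 ± 0.47. The interferon and antigen presentation lists are related, since interferon induces class I and class II genes.

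Some immune cell markers were also lower in value with sunflower oil, and none of the 12 marker lists passed its test. Monocyte and granulocyte markers, of which 8 of 11 were measured, had mean log2 levels of 5.8 to 6.15 in olive oil livers and 5.41 to 5.71 in sunflower oil livers, and summed signals of 864.1 to 1258 against 516.5 to 763.4. Most of that sum was Lyz2, a lysozyme that macrophages also make, with mean signals of 822.9 and 507.5, and 3 of the 8 markers, Ccr2, Itgam and Csf3r, were under the pseudocount. The mean levels of the groups did not overlap, with an exact two-sided permutation p of 0.1, the smallest that 3 against 3 allows, and 0.857 after adjustment over 12 marker lists. Macrophage and Kupffer cell markers, 7 of 11 measured, had mean log2 levels of 8.03 to 8.24 against 7.54 to 8.19, and summed signals of 2542 to 2953 against 1640 to 2659 (exact permutation p = 0.3, adjusted 0.857). Their part in the antigen presentation and interferon values was not tested. In whole liver, fewer cells of a type and less RNA per cell cannot be told apart. The 14 T and NK cell markers, 10 of them under the pseudocount, differed by -0.07 in mean log2 level, and the remaining 9 lists had exact permutation p-values of 0.2 to 1.

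Genes of the unfolded protein response and heat shock had a median of -0.24, with 23 of 28 negative and 5 lower at an unadjusted p under 0.05, beside 1.96% of all genes. The heat shock members went both ways. Hspa1a (-0.14), Hspb1 (-0.19) and Dnajb1 (-0.14) were negative, and Hsph1 (0.2), Bag3 (0.39) and Hsf1 (0.13) were positive. Manf, a secreted factor of endoplasmic reticulum stress, read 2578.4, 1216.3 and 1404.7 against 937.7, 1281.1 and 671.9 (-0.81 ± 0.287). Herpud1, a part of the machinery that degrades misfolded proteins, read 3679.7, 1982.0 and 2007.7 against 1265.0, 2023.6 and 1409.2 (-0.67 ± 0.282). Sdf2l1 and Creld2, both resident in the endoplasmic reticulum, differed by -0.76 ± 0.325 and -0.77 ± 0.353. Asns, asparagine synthetase, differed by -0.97 ± 0.453. Its groups overlapped, and its mean signals were low, at 49.8 with olive oil and 13.63, under 16, with sunflower oil. The first olive oil liver was the highest of the 6 for Manf, Herpud1, Sdf2l1 and Creld2, and the mean log2 level of the whole list was 9.47 in it, beside 9.06 and 9.08 in the other olive oil livers and 8.85, 9.06 and 8.86 in the sunflower oil livers. Without any 1 liver the median of the list ran from -0.33 to -0.20.

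**Figure D4:**
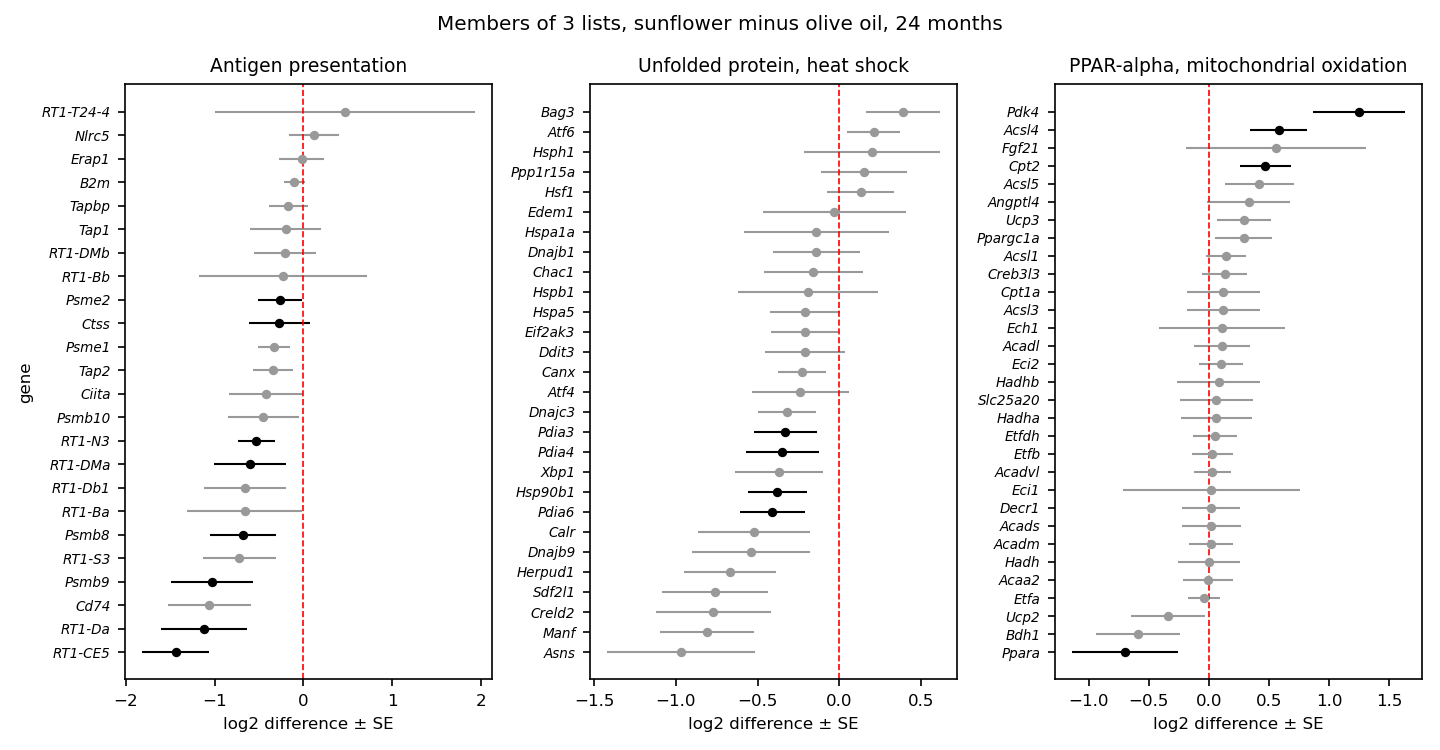
Log2 difference with SE (horizontal axes, sunflower minus olive oil, 24 months) of each measured member (vertical axes) of 3 lists, with members whose 3 and 3 livers did not overlap in black and the others in grey. Of 24 antigen presentation genes 22 lie left of 0, of 28 unfolded protein and heat shock genes 23 do, and of 31 PPAR-alpha and mitochondrial oxidation genes 26 lie right of it.

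The first olive oil liver also set the value of the cytosolic ribosomal proteins. Of 41 measured, 39 had negative differences, with a median of -0.16, but without that liver the median was 0.04. Acute phase and complement genes had a median of -0.11 with 29 of 35 negative and 1 lower at an unadjusted p under 0.05 (1.96% of all genes), C1r, a complement protease (1595.9, 1521.2 and 1414.7 against 1695.3, 826.1 and 493.7). Targets of p53 and senescence factors had a median of -0.16 and 2 of 23 lower, Gadd45g (-0.98 ± 0.439) and Gdf15 (-0.42 ± 0.191). Gadd45g was barely separated, at 237.1, 113.3 and 69.8 against 43.6, 56.8 and 68.4. Gdf15 had low signals, at 24.4, 21.9 and 30.5 against 16.5, 16.2 and 12.4. Cytokines and chemokines had 2 of 38 lower, Ccl24 (44.0, 33.0 and 31.9 against 24.5, 12.6 and 8.7; -0.77 ± 0.226) and Tgfb1. Amino acid breakdown and the urea cycle had 28 of 35 positive, a median of 0.11 and 0 at an unadjusted p under 0.05. Without the second sunflower oil liver, where the mean log2 level of the list was 10.94, that median was 0.02. The other sunflower oil livers were at 10.42 and 10.45.

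**Figure D5:**
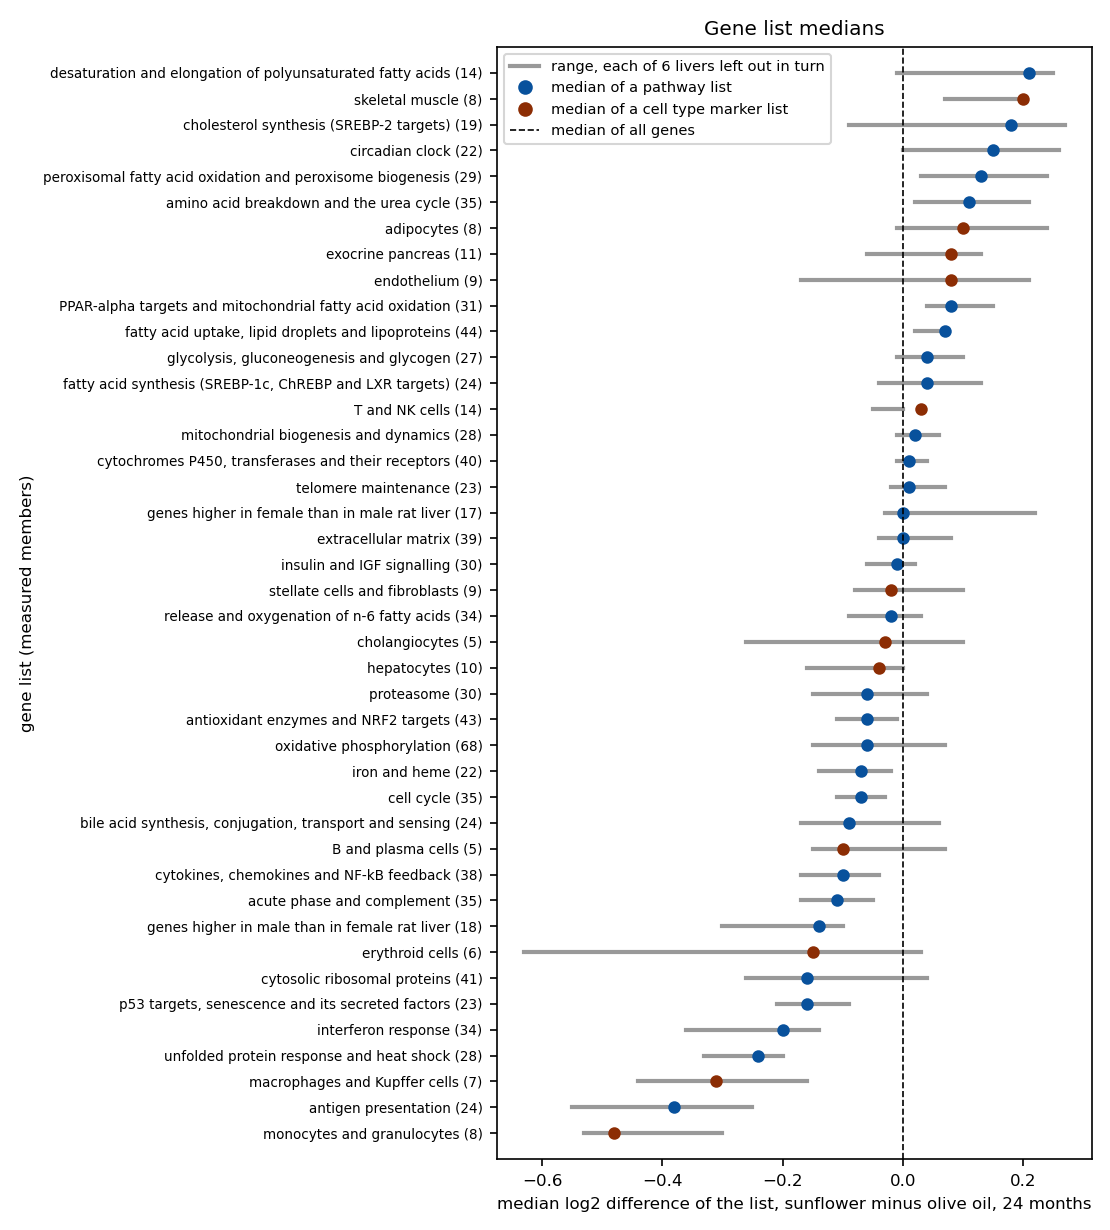
Median log2 difference (horizontal axis, sunflower minus olive oil, 24 months) of each gene list (vertical axis, with the number of measured members), in blue for pathways and brown for cell type markers. Grey lines give the range with each of the 6 livers left out in turn. Antigen presentation (-0.38) and monocyte and granulocyte markers (-0.48) lie at the low end. The list for polyunsaturated fatty acid desaturation and elongation, which also holds thioesterases, lies at the high end (0.21).

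Genes that differ between the sexes in rat liver, through the pattern of growth hormone release, included some of the wider differences. Prlr, the prolactin receptor, which is higher in females, read 80.2, 104.9 and 632.4 with olive oil and 658.8, 698.0 and 567.1 with sunflower oil (1.74 ± 0.531). The third olive oil liver alone was at the sunflower oil level, and without it the difference was 2.6 at a limma adjusted p of 0.0271. Dropping the 1 liver that goes against a difference widens it, so that p is no support for Prlr, which did not pass with all livers kept. Sult2a6, a sulfotransferase that is also higher in females, read 1209.9, 1067.4 and 3229.0 against 2233.5, 4165.4 and 4944.6 (1.15 ± 0.434). At 6 months, in other rats, it differed by 1.22. Cyp2c12, the female-specific P450, pointed the other way, at 323.2, 269.7 and 265.8 against 120.2, 150 and 135.9. Its groups were tight and apart, and its difference of -1 had an SE of 0.157 with these 6 arrays alone and 0.87 with the spread pooled over all 18. Old fish oil livers, which enter that spread, read 152.5, 317.0 and 5685.3. Its adjusted limma p was 0.687 with the 6 arrays and 1 with all 18.

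Over the 17 genes higher in females the median was 0.00, with 2 higher and 0 lower at an unadjusted p under 0.05. Of all genes, 2.04% were higher and 1.96% lower by this measure. Over the 18 genes higher in males the median was -0.14, with 1 higher, Cyp4a8, and 1 lower, Dhrs7l1 (-1.05 ± 0.463), beside the same shares. Cyp2c11, the male-specific P450, differed by -0.17 ± 0.357. Among 40 xenobiotic genes the median was 0.01, with Fmo5 and Ugt2b1, a glucuronosyltransferase (401.1, 1240.9 and 1666.1 against 1319.6, 2335.4 and 2223.8), higher and Sult1c3, a sulfotransferase, lower (4671.8, 4655.9 and 3346.5 against 3710.1, 1577.0 and 1819.9) at an unadjusted p under 0.05. These counts too stand beside 2.04% and 1.96% of all genes.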

How the data were processed

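The authors deposited 1 table of linear intensity values for probe sets. RMA and Partek appear, per the submitters' processing notes, without order or settings. Each compared array had a 2% trimmed mean intensity of 99.17 to 99.34, so values were scaled before deposit, and no detection calls were used. RMA gives log2 values, which these are not, so the tool behind the values is uncertain.

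Of 31042 probe sets, 20826 carried 1 gene symbol in the platform annotation, 436 several and 9780 none; 20758 of the first matched RefSeq (0 renamed). The probe set with the highest mean stood for a gene, giving 14217 genes. Log2(intensity + 16) was fitted with limma 3.58.1 in R 4.3.3 (lmFit, eBayes; 6 group means, 18 arrays, 12 residual and 4.32 prior degrees of freedom), adjusted by Benjamini-Hochberg over all genes; the code was first tested on simulated data. Marker lists were compared per array by exact two-sided permutation. P-values measure the spread between rats as housed.

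Genes, 32 core genes (26 measured) and 42 lists were chosen with earlier results of these data known. Named were the 10 genes a direction with the smallest p described in the text, up to 4 members a list with an unadjusted p under 0.05, the core genes, and 5 a direction for the change with age. B2m, Usp18, Asns, Psmb8, Psmb9 and the genes under the other observations were named after their values were seen. Tables and plots were made in Python 3.11.15 (scipy 1.17.1, pandas 2.3.3, matplotlib 3.10.9). There were 21 alternatives, 6 of them leaving out 1 liver.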

Additional observations from a re-analysis of the deposited data

How the results depend on the processing

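Counts of genes past the adjusted limma threshold stayed at 0 in both directions under 19 of 21 alternatives. Fitting only the 6 arrays compared gave 1 gene higher (Nqo1). Leaving out 1 liver gave 0 to 1 genes higher and 0 to 1 lower, the calls being Prlr and Clic2 without the third olive oil liver. The change of the oil difference with age had 0 genes wherever it could be fitted. The share of unadjusted limma p-values under 0.05 ran from 2.9% (412 of 14217 genes, without the first olive oil liver) to 5.42% (771, without the third). It was 3.1% of 7159 genes with a mean signal of at least 50 and 4.31% of 31042 probe sets. Of 64 named genes with an unadjusted p under 0.05, 0 changed sign under any alternative. They were picked by that p in these same data, and some also by non-overlap. Such a choice favours a stable sign, so the count is no separate support. Of the other 27 named genes, 9 changed sign. Deviations of same-numbered livers of the 2 oils from their group means correlated at 0.0168, -0.114 and 0.203, and those of other-numbered livers at -0.175 to 0.173. So few values cannot settle whether the numbers pair livers. The number 2 livers at 6 months shared high Scd values across oils. The main comparison was unpaired. With the replicate number as a block 0 genes were called, at a lowest adjusted limma p of 0.435 with all 18 arrays and 0.38 with 6. Of the 12 marker lists, 1 did not overlap between the oils. Precision is limited by 3 livers a group and by signals near background.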

Other observations

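Some of the widest differences rested on 1 or 2 livers, and these genes were picked after their values were seen. Ubd, a ubiquitin-like protein induced by interferon and tumour necrosis factor, read 1215.2, 1170.7 and 30.6 with olive oil and 27.4, 9.4 and 33.0 with sunflower oil, the lowest difference of all genes (-3.43 ± 1.22). The third olive oil liver lay within the sunflower oil range, as it did for Prlr. Cdh17, a cadherin, read 820.4, 1339.5 and 405.7 against 19.0, 338.9 and 181.4 (-2.54 ± 1.11), and Nrep, a neuronal regeneration protein, read 378.2, 498.1 and 69.1 against 116.6, 8.4 and 19.4. Ugt2b, a glucuronosyltransferase, read 9.6 in the first sunflower oil liver and 5215.5 to 6112.5 in the other 5 livers, which gave -2.53 ± 2.88. Onecut1, a liver transcription factor, read 1531.5 in the second sunflower oil liver and 277.2 or less in the other 5. Faxdc2, a hydroxylase-like membrane protein, read 251.5 and 270.6 in 2 sunflower oil livers and 56.2 or less in the other 4.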
